A study of Mus musculus with 4 samples.

Results

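The Sfmbt2 cluster is a run of miRNA hairpins that lie on the sense strand within an intron of the mouse gene Sfmbt2. It was measured in small RNA libraries of fetal liver from wildtype mice (2 libraries) and from mice carrying a catalytic dead form of Ago2 (Ago2 CD, 2 libraries). The members are all miRNA genes of GENCODE vM21 (mouse build GRCm38) inside the span of Sfmbt2 and on its strand, which gave 119 of the 2202 hairpins in that annotation. They were chosen by position and not by their levels. The labels give no strain, age, zygosity or pooling of animals, so p-values measure the spread between these libraries. The mutation itself is not read by these libraries.

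Argonaute proteins hold miRNAs and guide them to target mRNAs. Ago2 is the mouse member best known for cutting RNA with its own active site, and miR-451a depends on that cut for its maturation. Most other hairpins, those of the Sfmbt2 intron included, are thought to be cut by Drosha and then by Dicer, which leaves a 5p and a 3p arm of which 1 usually dominates. Sfmbt2 encodes a Polycomb group protein and is imprinted, with expression from the paternal allele in extraembryonic tissue, and its intronic miRNAs are best known from placenta and embryonic stem cells. The comparison therefore addresses whether the level of such a cluster, and the arm its hairpins favour, differ when the cutting activity of Ago2 is lost.

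The libraries held 13138065 to 21875540 reads, of which 7814118 to 14423035 were assigned to hairpin arms. Reads of the erythroid hairpins mir-451a, mir-144 and mir-486 numbered 6708060 and 5184211 for wildtype, against 4950556 and 3163223 for Ago2 CD. Because these few miRNAs take so large a part of a library, levels are given as CPM, counts per 1000000 with library sizes scaled by TMM, a method that sets the typical arm to the same level in every library. Libraries also differ in their longest read, which is 50 nt for the first wildtype and the second Ago2 CD library and 46 nt for the others. A genotype thus has 1 library of either read length, and values within a read length are given beside the pooled comparison. Values of 4 libraries are listed in the order wildtype 1, wildtype 2, Ago2 CD 1 and Ago2 CD 2.

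The hairpins span chr2:10465287-10518279, 52993 bases of the Sfmbt2 gene (chr2:10370510-10595253, plus strand). All lie in intron 10 of the 23-exon transcript Sfmbt2-201, and 0 overlap an exon of any annotated Sfmbt2 transcript. Symbols put 5 hairpins in the mir-297 family, 23 in mir-466, 14 in mir-467 and 29 in mir-669, and the other 48 have no Mir symbol. The mir-467 hairpins are evenly spaced: of the 13 gaps between their successive starts, 11 measured between 2400 and 2500 bases, with a median of 2450. This held for 10 of 28 gaps in mir-669, 9 of 22 in mir-466 and 0 of 4 in mir-297. Only 88 hairpin sequences are distinct, and 47 hairpins have an identical copy within the cluster. As a result 81 hairpins had no read of their own, 38 had at least 1 read that matched no other hairpin, and 7, all without a Mir symbol, had no read at all.

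**Figure D1:**
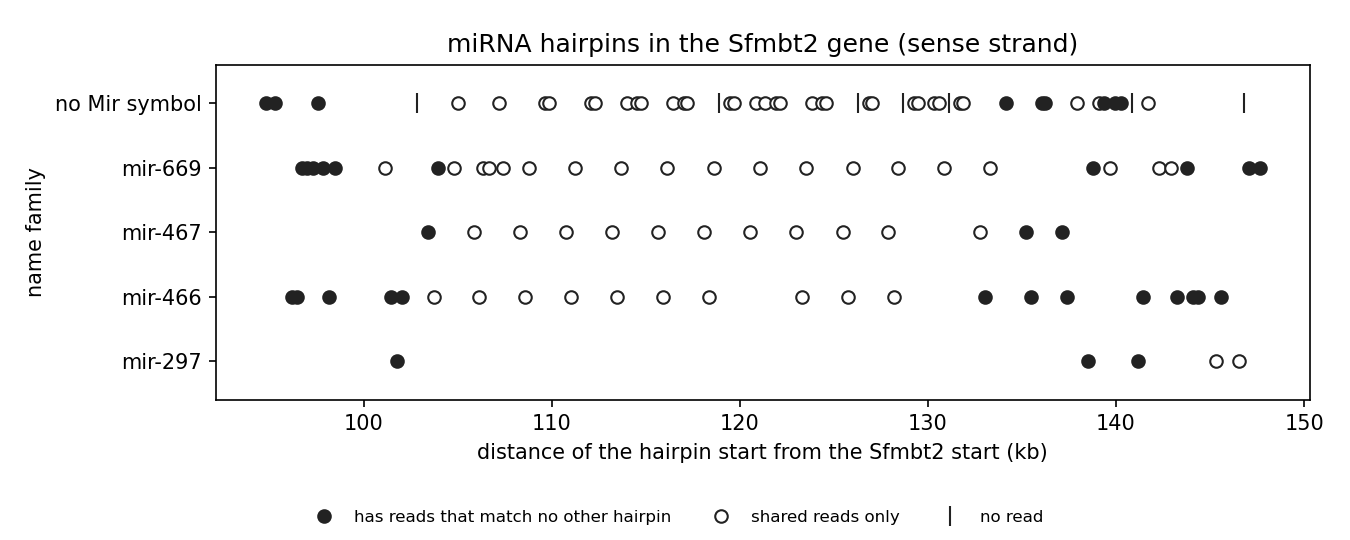
Position of the 119 hairpins along Sfmbt2, as the distance in kb of each hairpin start from the gene start (x axis), by name family (y axis). Filled circles mark the 38 hairpins with reads matching no other hairpin, open circles those with shared reads only, and bars the 7 with no read; the filled circles lie mostly at the 2 ends of the cluster.

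Hairpins that gave the same read were therefore pooled, and each pool of 5p or 3p reads is called by its first name. The 12 most abundant pools held 77.2% of all cluster reads, and their most frequent reads are shown because members are told apart only by such reads. They are printed as deposited, 5′ to 3′, with the seed (bases 2 to 8, the stretch that pairs with targets) in capitals.
miR-669a-3p: aCATAACAtacacacacacgtat
miR-467a-5p: tAAGTGCCtgcatgtatatgcg
miR-466-3p: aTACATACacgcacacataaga
miR-467e-5p: aTAAGTGTgagcatgtatatgt
miR-669a-5p: aGTTGTGTgtgcatgttcatgtct
miR-467a-3p: aTATACATacacacacctacac
miR-669b-5p: aGTTTTGTgtgcatgtgcatgt
miR-669d-5p: aCTTGTGTgtgcatgtatatgt
miR-669c-5p: aTAGTTGTgtgtggatgtgtgtat
miR-297a-5p: aTGTATGTgtgcatgtgcatgt
miR-467c-5p: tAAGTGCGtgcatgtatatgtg
miR-297c-5p: aTGTATGTgtgcatgtacatgt

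The arms are built from simple repeats. The hexamer TGTGTG, searched on the read strand only, occurred in the most frequent read of 16 of the 20 tested 5p arms of the cluster, in 0 of its 16 tested 3p arms and in 8 of the 548 other tested arms (1.46%). ACACAC, its reverse complement shifted by 1 base, occurred in 0 of the 20 5p arms, 12 of the 16 3p arms and 4 of the 548 others (0.730%). The 36 tested arms had 28 distinct seeds, and 14 arms shared 1 of 6 seeds. TGTATGT was shared by miR-297a-5p, miR-297b-5p and miR-297c-5p, and AAGTGCG by miR-467c-5p and miR-467d-5p. TATACAT joined arms of 3 families, namely miR-467a-3p, miR-297a-3p and miR-669b-3p. The start that gives this seed held 50%, 66.7%, 52.6% and 21.4% of the 24, 30, 38 and 14 reads of miR-669b-3p. Another 41.7%, 30%, 31.6% and 78.6% of them started 1 base earlier. In miR-467a-3p it held 65.7% to 69.9% of reads and in miR-297a-3p 66.7% to 74.7%. GTTGTGT was shared by miR-669a-5p and miR-466m-5p, a pool that also holds mir-669f, so this seed need not cross families. The bases AAGTGC at the start of the miR-467a-5p, miR-467c-5p and miR-467d-5p seeds are also known from the miRNAs of the mir-302 family of embryonic stem cells.

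The pools differ in how many genes stand behind a read. miR-669a-3p pooled 16 hairpins (mir-669a, mir-669o, mir-669p and 1 without a Mir symbol), miR-467a-5p 12, miR-466-3p 15, miR-669a-5p 16 and miR-467a-3p 14, so their levels are sums over many loci. By contrast miR-467e-5p and miR-467c-5p each came from 1 hairpin. Mir467e (chr2:10505721-10505807, intronic) had the most reads that matched no other hairpin, 2002 over the 4 libraries, followed by Mir669c (chr2:10509296-10509404) with 1269, Mir297c (chr2:10509016-10509113) with 1039 and Mir467c (chr2:10473931-10474027) with 981. The pools miR-669d-5p, miR-669c-5p and miR-297a-5p also hold 4, 1 and 3 hairpins outside Sfmbt2. Over the whole cluster 4.396% to 5.65% of reads also matched a hairpin elsewhere, and matches to the genome outside annotated hairpins were not analysed here.

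The cluster as a whole was detected at a moderate level in every library. Reads matching any of its hairpins, each counted once, numbered 4117, 7877, 15843 and 6502, which is 689.8, 889.6, 795 and 684 CPM. The mean was 789.7 ± 141 CPM in wildtype against 739 ± 78.7 in Ago2 CD (SD, n = 2 each), a ratio of 0.936. The genotypes overlapped: the highest and the lowest level of wildtype lie above and below Ago2 CD replicate 1. No p is given for this sum. The log2 ratio of -0.10 became 0.59 with reads on arms as library size, 0.43 with all reads of at least 18 nt, 0.13 without wildtype replicate 2 and 0.023 when Ago2 CD replicate 2 was left out, so its sign depends on the scaling and on either of these libraries.

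The 4 families were each within their spread between genotypes. Reads on mir-669 hairpins were the most abundant, at 340 ± 108 CPM in wildtype against 305 ± 86.3 in Ago2 CD (SD, n = 2 each). Those on mir-467 hairpins stood at 225 ± 6.18 and 218 ± 28.3 CPM, and those on mir-466 hairpins at 156 ± 14.0 and 153 ± 3.90 CPM. The mir-297 hairpins gave 63.3 ± 25.03 and 56.9 ± 19.8 CPM. In the mir-669 and mir-297 families the spread followed the read length: mir-669 reads measured 264, 416, 366 and 244 CPM, and mir-297 reads 45.6, 81.0, 70.9 and 42.9 CPM, with both 46 nt libraries above both 50 nt libraries. The mir-467 family (229.9, 221, 198 and 238 CPM) had its lowest values in the 46 nt libraries.

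Single arms were compared with the quasi-likelihood test of edgeR, fitted over 584 arms of the whole annotation. Of the 57 pools of the cluster with a read, 36 had enough reads to be tested, and the other 21 held 272 reads in all. At an adjusted p under 0.05 (Benjamini-Hochberg), 0 of the 36 were called, against 2 of all 584 arms (0.342%). At an unadjusted p under 0.05 there was 1 of 36, against 2.91% of all arms, and DESeq2 and limma voom gave 0 at either threshold. Both Ago2 CD libraries lay above both wildtype libraries for 5 of 36 arms (15.9% of all arms) and below them for 5 of 36 (13.9%). The median log2 fold change of the cluster was 0.01, with 18 arms above 0 and 18 below it (46.2% of all arms lay below 0) and a range from -1.11 to 0.62. The median over all arms tested was 0.04. With reads on arms as library size both medians moved together, to 0.67 for the cluster and 0.74 for all arms.

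miR-669a-3p was the most abundant arm of the cluster and the one that varied most among the top 12. Its counts were 591, 2152, 4045 and 671 reads, or 99.02, 243, 203 and 70.5 CPM. The 46 nt libraries were both high and the 50 nt libraries both low, so that wildtype (171 ± 102 CPM) and Ago2 CD (137 ± 93.6; SD, n = 2 each) overlapped widely. The log2 fold change was -0.32 (SE 0.71, adjusted p 0.997 in edgeR), and it was -0.26 within the 46 nt and -0.49 within the 50 nt libraries. With read length as a term in the edgeR fit it was -0.37, with a smaller SE of 0.16 (p 0.0579, adjusted p 0.232 in edgeR), and was not called. Without that term, the fold change turned positive when library size was the sum of arm reads (0.31) or of every read from 18 nt up (0.20). It was also positive without wildtype replicate 2 (0.52) or Ago2 CD replicate 2 (0.26), where read length is uneven between genotypes. It stayed negative with DESeq2 size factors (-0.30) and with library sizes that leave out miR-451a and miR-486 (-0.50).

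The second arm, miR-467a-5p, was steadier. It measured 114, 102, 90.7 and 99.04 CPM, from 680, 906, 1807 and 942 reads, and both Ago2 CD libraries lay below both wildtype libraries. The difference was small and missed the threshold (log2 fold change -0.19, SE 0.29, adjusted p 0.997 in edgeR), with a 95% interval from -0.96 to 0.58. It changed sign, to 0.54, when library size was taken as reads on arms. Other mir-467 arms stood lower: miR-467e-5p at 44.9, 42.6, 38.9 and 51.8 CPM, and miR-467c-5p at 25.3, 17.8, 19.3 and 27.7 CPM. In both of these the genotypes overlapped and the 46 nt libraries were the low ones.

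The opposite arm of the mir-467 hairpins, miR-467a-3p, gave 26.1, 44.4, 35.9 and 36.2 CPM, with the Ago2 CD libraries between the wildtype ones. miR-466-3p and miR-669c-5p were the most even of the 12 arms. miR-466-3p measured 49.8, 54.9, 55.5 and 52.7 CPM (log2 fold change 0.05, SE 0.31). miR-669c-5p measured 26.97, 28.2, 28.2 and 30.4 CPM (0.09, SE 0.32). For these arms the estimates are close to 0, while their 95% intervals, -0.77 to 0.87 and -0.78 to 0.95, still reach well to either side of 0. The genotypes also overlapped in other 5p arms of mir-669: miR-669b-5p gave 29.8, 35.2, 29.9 and 37.2 CPM, and miR-669d-5p 33.5, 27.1, 26.6 and 28.0 CPM. miR-669a-5p, the partner of the most abundant arm, measured 34.7, 35.1, 36.6 and 48.7 CPM. Both of its Ago2 CD values lay above wildtype, mainly through replicate 2 (log2 fold change 0.29, SE 0.34, adjusted p 0.997 in edgeR).

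The mir-297 5p arms repeated the split by read length seen in miR-669a-3p. miR-297a-5p gave 14.4, 32.5, 31.2 and 17.1 CPM, and miR-297c-5p 15.7, 35.0, 25.4 and 13.5 CPM. These share a seed, as the printed reads show. Their log2 fold changes between genotypes were 0.04 (SE 0.58) and -0.38 (SE 0.59). The third arm with this seed, miR-297b-5p, is much rarer and did not follow the read length, at 3.52, 3.73, 2.06 and 1.68 CPM.

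**Figure D2:**
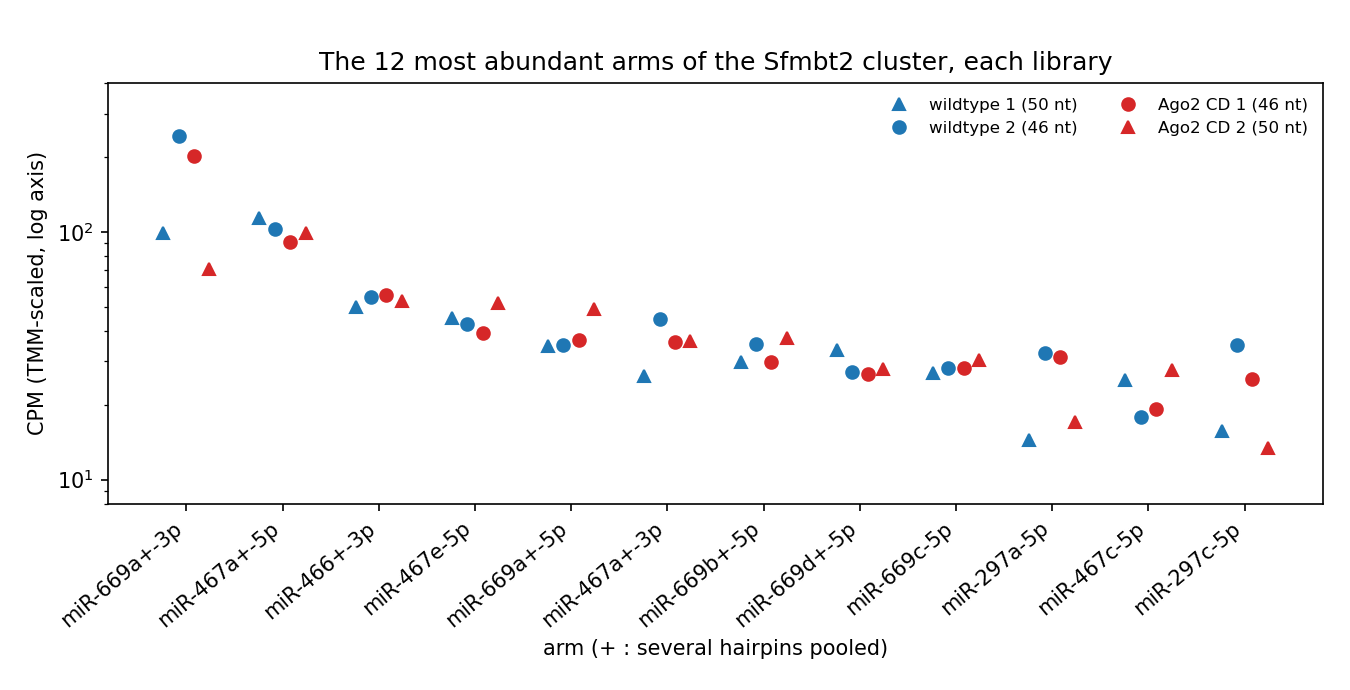
TMM-scaled CPM on a log axis of the 12 most abundant arms, 1 point per library (blue wildtype, red Ago2 CD; circles 46 nt, triangles 50 nt libraries). Colours are mixed for most arms, while circles stand above triangles for miR-669a-3p, miR-297a-5p and miR-297c-5p.

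Of the 36 tested arms, the smallest unadjusted p between genotypes was that of miR-669b-3p. The most frequent reads of the 3 arms with the smallest p values are printed as above, to set them beside their relatives.
miR-669b-3p: aTATACATacacacaaacatat
miR-297b-5p: aTGTATGTgtgcatgaacatgt
miR-466n-3p: tATACATGagagcatacataga
miR-669b-3p had 24, 30, 38 and 14 reads, or 4.02, 3.39, 1.91 and 1.47 CPM, with both Ago2 CD libraries under both wildtype libraries. Its log2 fold change was -1.11 (SE 0.41, edgeR p 0.0475, adjusted p 0.997), and it was -0.85 within the 46 nt and -1.37 within the 50 nt libraries. With reads on arms as library size the value was -0.36. miR-297b-5p had 21, 33, 41 and 16 reads, a log2 fold change of -0.94 (SE 0.39) and an adjusted p of 0.997 in edgeR. miR-466n-3p had 14, 18, 61 and 35 reads, or 2.35, 2.03, 3.06 and 3.68 CPM, and a log2 fold change of 0.62 (SE 0.40, adjusted p 0.997 in edgeR). These arms rest on 14 to 61 reads a library, and none passed the threshold.

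Of the other arms whose genotypes did not overlap, miR-467a-5p and miR-669a-5p are described above, and the rest were rare. miR-669m-3p and miR-466m-3p lay lower in both Ago2 CD libraries, with 1.84, 2.15, 1.81 and 1.16 CPM and with 2.01, 1.58, 1.20 and 1.47 CPM. miR-466m-5p, pooled with mir-669f, lay higher in both, at 4.02, 4.18, 4.77 and 5.99 CPM. miR-466g-3p (4, 9, 21 and 15 reads) and a pool of CA-repeat reads were also higher in both, although the 46 nt libraries of the genotypes were almost equal, at 1.02 and 1.05 CPM for either arm, a log2 difference of -0.11 once the prior count of 2 is added. That last pool holds the hairpin Gm24342 of the cluster together with 62 hairpins elsewhere, so it says little of the Sfmbt2 intron. With read length as a term in the edgeR fit, 0 of the 36 arms were called at an adjusted p under 0.05 (1.71% of all arms) and 3 at an unadjusted p (24.1% of all arms). Within both read lengths, with that prior count, Ago2 CD lay below wildtype for 16 of 36 arms (34.2% of all arms) and above it for 6 (36.8%). The same prior count was used for every library, and the Ago2 CD library had the larger TMM-scaled size at either read length. For rare arms this lowers the difference, so miR-669e-5p counts as below with 3.39 and 3.41 CPM in the 46 nt libraries. For the same reason miR-466g-3p and the CA-repeat pool do not count as above.

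**Figure D3:**
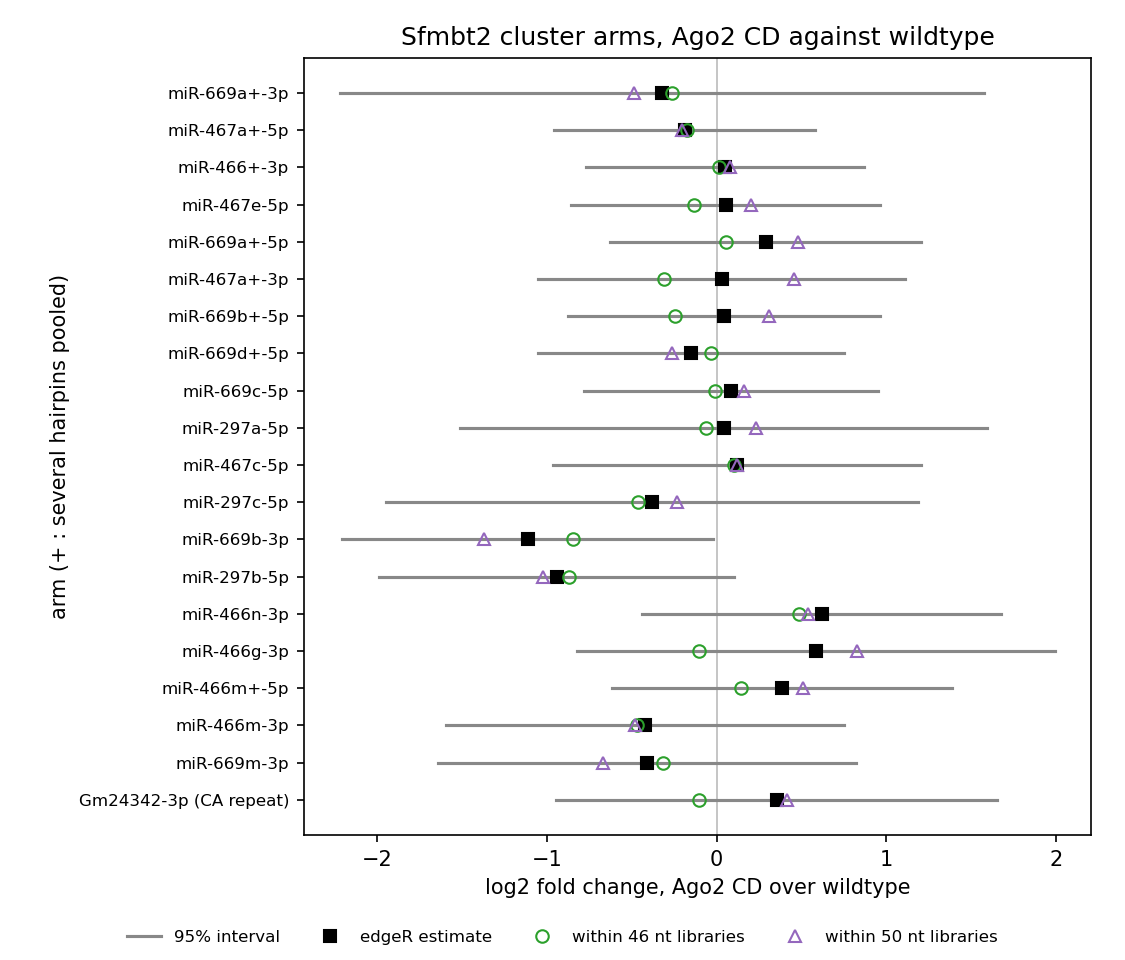
Log2 fold change of Ago2 CD over wildtype (x axis) for the 20 named arms (y axis). Squares are edgeR estimates with their 95% intervals, open circles and triangles the differences within the 46 nt and 50 nt libraries; all intervals but that of miR-669b-3p hold 0.

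Arm preference differed between hairpins and lay on the same side in all 4 libraries. The share of 3p reads was tested for 12 pools of hairpins that share arms, which together hold 100 hairpins of the cluster. In 6 of them most reads came from the 3p side in every library, and in the other 6 most came from the 5p side in every library. limma on the log2 ratio of 3p to 5p reads called 0 of 12 between genotypes at an adjusted p under 0.05 (0.840% of 238 hairpins or pools) and 0 at an unadjusted p (3.36%). The smallest unadjusted p was 0.167 and belonged to the mir-669b pool.

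Hairpins of the same family differed in the arm they favour. The mir-669a pool was mainly 3p, with 69.4%, 84.5%, 81.6% and 55.4% of its reads on that side, whereas mir-669c was almost wholly 5p, with 0.617%, 0.398%, 0.355% and 2.03% 3p reads. The mir-669b pool gave 16.4%, 13.6%, 11.1% and 6.60% 3p reads, both Ago2 CD libraries lying below wildtype. The mir-669d pool gave 8.26%, 4.51%, 3.84% and 7.37%, and mir-669e stood in between, at 34.5%, 25%, 32.0% and 31.6%. The mir-669h pool, which joins 32 hairpins, was mainly 3p, at 79.2%, 73.2%, 72.2% and 57.1%, again with both Ago2 CD libraries below wildtype (log2 change of the ratio -0.73).

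The tested mir-466 pools were mainly 3p. The large mir-466 pool was the most balanced of all, at 57.7%, 55.5%, 56.8% and 59.6% 3p reads, and it was close to even in both genotypes. mir-466f gave 77.4%, 86.0%, 88.6% and 82.4%, and the mir-466d pool 88.1%, 77.2%, 78.7% and 88.6%. The mir-466m pool, which also holds mir-669f, gave 75.3%, 83.6%, 78.3% and 51.7%. Over the 4 libraries Mir669f matched 872 reads and Mir466m 147, so these shares rest mainly on mir-669f. Outside the tested pools, mir-466h was mainly 5p, with 13, 51, 88 and 42 reads on that side against 1, 11, 5 and 2 on the 3p side. The mir-467 pool was mainly 5p, at 11.4%, 20.1%, 18.1% and 15.2% 3p reads, as was the mir-297 pool, at 26.1%, 11.99%, 17.3% and 25%. Between genotypes the ratio of 3p to 5p reads shifted by log2 values that ranged from -0.99 in the mir-466m pool to 0.42 in mir-669c. The value of mir-669c rests on 1, 1, 2 and 6 3p reads (SE 0.90). It was -0.43 within the 46 nt and 1.27 within the 50 nt libraries. Both Ago2 CD libraries lay below both wildtype libraries in 2 of 12 pools (14.7% of all tested) and above them in 0 of 12 (15.1%).

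**Figure D4:**
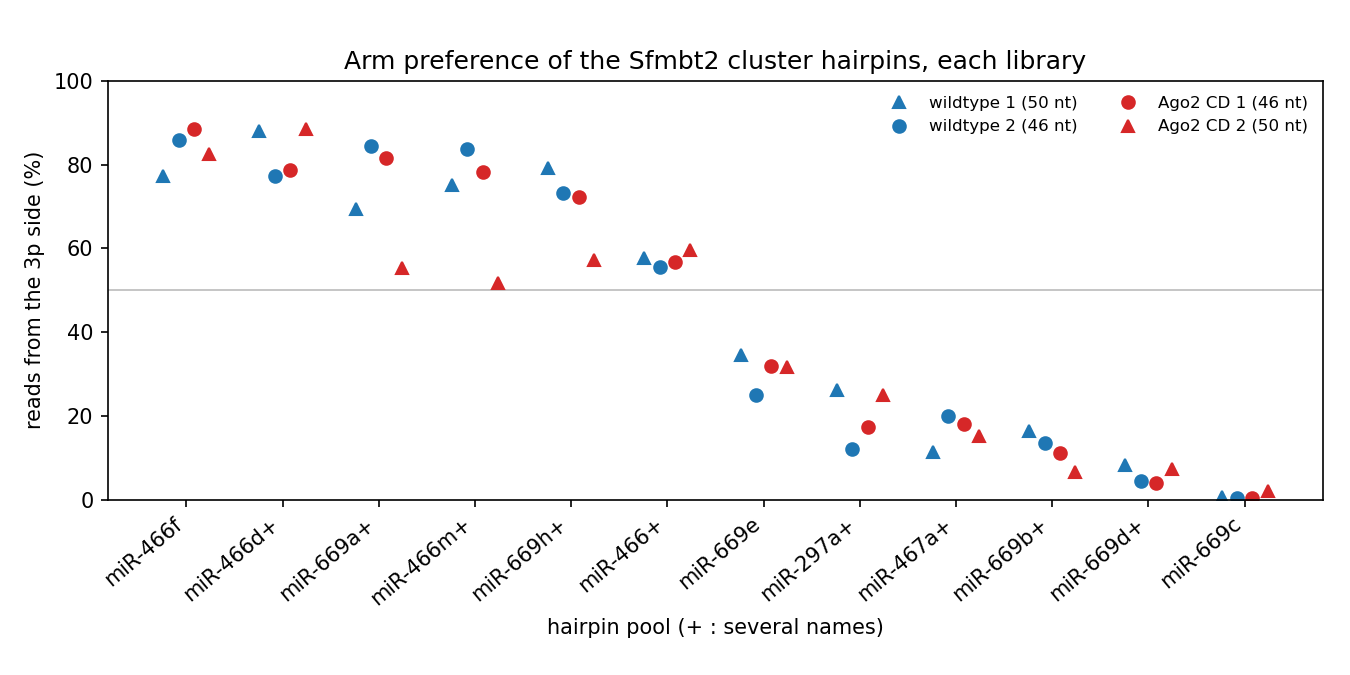
Share of reads from the 3p side (y axis, percent) for the 12 tested hairpin pools (x axis), 1 point per library (blue wildtype, red Ago2 CD; circles 46 nt, triangles 50 nt libraries). The line at 50% separates 6 pools that are mainly 3p in every library from 6 that are mainly 5p in every library.

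Summed over the cluster, 38.1%, 49.3%, 47.7% and 34.7% of reads were 3p, with exact Clopper-Pearson 95% intervals of 36.6% to 39.6%, 48.2% to 50.4%, 46.9% to 48.5% and 33.5% to 35.8%. These intervals cover counting error only. Wildtype libraries had a mean of 43.7% ± 7.88 and Ago2 CD libraries one of 41.2% ± 9.23 (SD, n = 2 each), so that the genotypes differed by less than their libraries did. The 46 nt libraries were above the 50 nt libraries in both genotypes. Most of that gap came from 1 pool: without miR-669a-3p the shares were 27.8%, 30.2%, 29.8% and 27.1%.

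Read length separated some arms more clearly than genotype did. In the edgeR fit that holds both, the 46 nt libraries differed from the 50 nt libraries at an adjusted p under 0.05 for 5 of the 36 cluster arms, against 37.5% of all arms, and for 7 of 36 at an unadjusted p (48.6% of all arms). The 5 were higher in the 46 nt libraries: miR-669a-3p (log2 difference 1.41, SE 0.17, adjusted p 0.00191 in edgeR), miR-297a-5p (1.01), miR-297c-5p (1.03), miR-669f-3p (1.23) and miR-466d-5p (1.44). The cluster's share is below that of all arms, and its median difference was 0.01. Both 46 nt libraries lay above both 50 nt libraries for 12 of 36 arms (29.5% of all arms) and below them for 5 (31.0%). For the 3p to 5p ratio, 0 of 12 pools passed at an adjusted p in limma (0.00% of all tested) and 6 of 12 at an unadjusted p (42.4%). The 3p share was higher in both 46 nt libraries for 4 of 12 pools (19.7% of all tested).

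Some marker lists moved with read length too. The neuronal miRNAs mir-9 and mir-124 summed to 13.1, 269, 315 and 16.5 CPM, the epithelial mir-200a, mir-200b and mir-429 to 634, 1337, 1539.96 and 834 CPM, and the hepatocyte hairpins mir-122, mir-192 and mir-194 to 26211, 58837, 75365 and 35648 CPM. The muscle miRNAs mir-1a, mir-133a and mir-206 were high in 1 library, at 716, 31.6, 13.3 and 35.1 CPM. Endothelial mir-126a was lower in the 46 nt libraries (8265, 6187, 6236 and 7517 CPM). The myeloid and lymphoid list (70554, 71082, 70830 and 60286 CPM) was higher in both 46 nt libraries, though by little against wildtype replicate 1. The mesenchymal list (4059, 3852, 3605 and 3321 CPM) did not split by read length. The part of these lists in the differences by read length was not tested. In whole tissue, fewer cells of a type and less RNA per cell cannot be told apart.

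The lengths of the reads of some cluster arms also split by library read length and were similar in the 2 genotypes. Such lengths do not separate the 5′ end from the 3′ end. Of miR-467a-5p reads, 52.8% and 53.6% were 21 nt long in the 50 nt libraries of wildtype and Ago2 CD, and 21.0% and 20.03% in their 46 nt libraries. Conversely 22 nt reads made up 28.2% and 28.5% in the 50 nt libraries and 62.6% and 62.9% in the 46 nt libraries. Reads of miR-669b-5p that were 19 nt long made up 32.0% and 31.4% in the 50 nt libraries and 9.62% and 11.4% in the 46 nt libraries. For miR-669a-3p the main length of 23 nt held 42.5% and 49.6% of reads in the 50 nt libraries, and 65.1% and 66.2% in the 46 nt libraries. Not every arm split in this way: 22 nt reads made up 53.6%, 57.6%, 53.9% and 65.4% of miR-467c-5p.

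**Figure D5:**
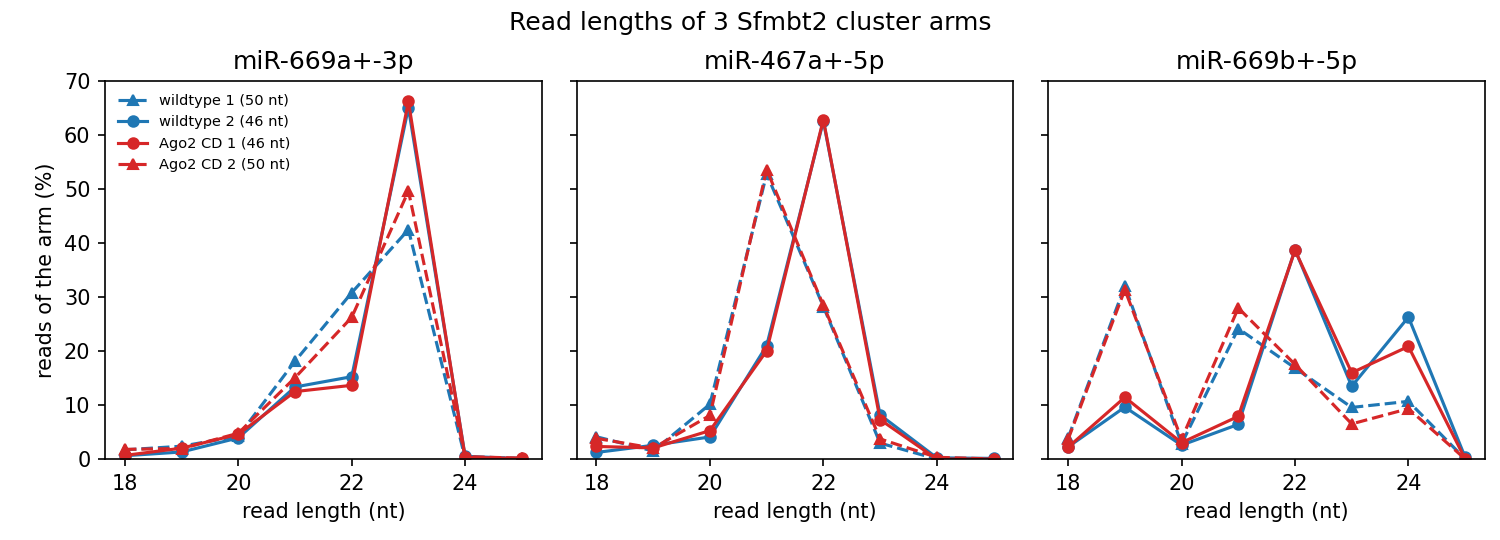
Percent of an arm's reads (y axis) by read length in nt (x axis) for miR-669a-3p, miR-467a-5p and miR-669b-5p, 1 line per library (blue wildtype, red Ago2 CD; solid 46 nt, dashed 50 nt libraries). Lines pair by library read length and not by colour, as at 21 nt for miR-467a-5p, with 52.8% and 53.6% against 21.0% and 20.03%.

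Tailed reads, which match a cluster hairpin except for 1 to 3 added bases at the 3′ end, made up 17.96%, 9.35%, 9.18% and 20.5% of cluster reads. The excess in the 50 nt libraries was in tails of C alone, at 8.75%, 0.184%, 0.235% and 11.9%. All other tails together were level, at 9.21%, 9.16%, 8.94% and 8.56%. For all other arms the C tails stood at 12.8%, 0.126%, 0.149% and 16.3%, so the pattern was not one of the cluster alone. On miR-669a-3p they reached 15.2%, 0.0911%, 0.0969% and 22.0%, while on miR-467a-5p they were rare, at 1.77%, 0.102%, 0.102% and 1.67%. With tailed reads counted, the log2 difference of miR-669a-3p between 46 nt and 50 nt libraries was 1.26, and 6 of 37 cluster arms passed, against 37.5% of all arms.

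Several arms had 2 frequent 5′ ends, which set the seed, in every library. Of the 12 most abundant arms, the share of reads at the printed start was higher in both 46 nt libraries for 2, lower in both for 4 and mixed for 6. miR-669a-3p started at the printed base in 65.8%, 78.7%, 78.0% and 65.4% of its reads, and miR-467c-5p in 73.5%, 62.7%, 61.7% and 76.0%. These 2 arms split by read length in opposite directions, with the genotypes overlapping. miR-467e-5p started at the printed base in 57.5%, 52.0%, 56.8% and 55.4% of reads and 1 base later in 36.9%, 43.2%, 41.2% and 38.7%. miR-466-3p started at the printed base in 47.8%, 52.3%, 50.6% and 52.1% of reads and 1 base earlier in 37.0%, 39.7%, 40.1% and 29.9%. miR-669c-5p kept its start in 96.3%, 93.2%, 92.5% and 96.5% of reads, and miR-467a-5p in 89.6%, 87.7%, 91.3% and 90.1%. For miR-467a-5p both Ago2 CD shares lay above both wildtype shares, by little, and for miR-467e-5p, miR-466-3p and miR-669c-5p the genotypes overlapped.

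The host transcript was barely seen. Reads of at least 20 nt on Sfmbt2 exons numbered 1, 2, 7 and 6. Such fragments are no measure of the level of an mRNA. Of 14 placental and trophoblast mRNAs, 10 were at 0 in all libraries, among them the placental prolactins Prl3d1, Prl3b1, Prl2c2 and Prl8a9, the syncytin Syna, and Plac1. Gcm1, a syncytiotrophoblast factor, had 0, 3, 7 and 1 reads. Tpbpa, of the spongiotrophoblast, had 9, 7, 23 and 32, the syncytin Synb 61, 62, 151 and 216, and Peg10 15, 10, 33 and 39. Whether the reads counted for these mRNAs also match other transcripts or genomic sites was not checked. Summed, the list stood at 5.37 and 6.24 per 1000000 library reads in wildtype and at 9.78 and 18.9 in Ago2 CD. On that scale Tpbpa stood at 0.568, 0.533, 1.05 and 2.10, Synb at 3.85, 4.72, 6.90 and 14.2, and Peg10 at 0.947, 0.761, 1.51 and 2.56. Each was higher in both Ago2 CD libraries, while Gcm1 (0, 0.228, 0.32 and 0.0656) overlapped. These values were not scaled by TMM. Synb gave 61 of 85, 62 of 82, 151 of 214 and 216 of 288 reads of the sum. Scaling by every read from 18 nt up moved the median log2 fold change of all tested miRNA arms from 0.04 to 0.57. The sum alone therefore cannot show whether the list as a whole differs between genotypes. The part of placental RNA in the level of the cluster was not tested.

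A further imprinted cluster was set beside it. The hairpins between Mir379 and Mir410 on chromosome 12 gave 64 tested arms with a median log2 fold change of -0.04, with 28 above 0 and 36 below, and 0 of them called in edgeR. Hairpins with the same family names outside Sfmbt2 gave 1 tested arm of their own, with a log2 fold change of 0.57. Its sign differed by read length, at -0.55 within the 46 nt and 1.65 within the 50 nt libraries, and it was not called.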

How the data were processed

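The files deposited by the authors list distinct reads with their raw counts, with no normalization. The submitters' processing notes name cutadapt, without a version; the trimming settings and any genome build are not given in the sources used here. The series' design text calls the libraries biological replicates. Reads with an undetermined base (0.183% to 0.256%) were left out. Reads of 18 to 27 nt were matched without mismatch to GENCODE vM21 hairpins, sense strand; an arm is the side of the hairpin midpoint, and arms whose most frequent reads share their first 18 nt, or lie within each other, were pooled. Reads matching several pools were left out of arms but kept in sums. Arm counts were tested with edgeR 4.0.16 (quasi-likelihood, TMM, filterByExpr) in R 4.3.3, and the 3p to 5p ratio with limma 3.58.1 (pseudocount 0.5, at least 20 reads in every library and 10 on the minor arm), two-sided, Benjamini-Hochberg threshold 0.05, over all arms. Differences within a read length use a prior count of 2. DESeq2 1.42.0, limma voom, other scalings, read definitions, blocks and left-out libraries were alternatives. The procedure was tested on simulated data. Named arms are the 12 most abundant plus up to 8 others with the smallest p whose genotypes did not overlap. Members and lists were chosen with earlier results of these data known.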

Additional observations from a re-analysis of the deposited data

How the results depend on the processing

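The counts of 0 called arms and 0 called arm ratios held under every alternative run. Over all alternatives, 261 values of single arms kept their sign and 36 changed it. With reads on arms as library size the median log2 fold change of the cluster was 0.67 and the summed level 0.59, and miR-669a-3p (0.31), miR-467a-5p (0.54), miR-669d-5p (0.60), miR-297c-5p (0.25), miR-466m-3p (0.32) and miR-669m-3p (0.30) changed sign. With all reads of at least 18 nt the median was 0.52 and the summed level 0.43, and the same arms stood at 0.20, 0.38, 0.45, 0.11, 0.17 and 0.18. These scalings moved the median of all arms to 0.74 and 0.57. Without miR-451a and miR-486 in the library size, miR-466-3p (-0.11), miR-467e-5p (-0.11), miR-467a-3p (-0.16), miR-669b-5p (-0.13), miR-669c-5p (-0.072), miR-297a-5p (-0.14) and miR-467c-5p (-0.017) changed sign. With tailed reads the CA-repeat pool stood at -0.0032. With reads of 20 to 24 nt miR-466-3p (-0.011), miR-669b-5p (-0.019) and miR-669d-5p (0.072) changed sign.

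Leaving out 1 library in turn gave -0.23 to 0.13 for the summed level (above 0 without wildtype replicate 2, and at 0.023 without Ago2 CD replicate 2), -9.04 to 4.01 percentage points for the 3p share, -1.27 to 0.52 for miR-669a-3p, -0.26 to 0.49 for miR-467a-3p, -0.11 to 0.21 for miR-669b-5p, -0.27 to 0.047 for miR-669d-5p, -0.45 to 0.79 for miR-297a-5p, -0.14 to 0.42 for miR-467c-5p, -0.91 to 0.35 for miR-297c-5p and -0.15 to 0.26 for miR-467e-5p. Here the lone library of a genotype is assumed to vary like the others. Read length is then uneven between genotypes, so these values mix genotype with read length.

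Same-numbered libraries deviated in opposite directions (r = -0.726 over 584 arms). With 2 libraries a genotype, r for the crossed pairs is the same value with the other sign. It therefore cannot tell whether same-numbered libraries were paired. With the replicate block 0 arms were called, 0 at an unadjusted p. The crossed pairing equals the read length term, with 0 called and 3 at an unadjusted p. The causes of these changes were not tested. Keeping only reads whose every genome match lies in Sfmbt2 was not run. The counting of tailed reads in the comparison of read lengths was chosen after seeing the data. Depth limits the 8 arms named for their p, which had 4 to 95 reads in a library.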
